A study of Mus musculus with 6 samples.

Results

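Transforming growth factor beta (TGF-beta), myostatin and activin signaling was described in cultured mouse muscle stem cells (MuSCs) through 10 genes chosen by name. They are the ligand genes Tgfb1, Tgfb2, Tgfb3, Mstn and Inhba, the receptor genes Tgfbr1, Tgfbr2 and Acvr2b, the secreted inhibitor Fst and the intracellular inhibitor Smad7. All 10 had a row among the 18943 genes of the expression table. The cells came from 8 week old wild-type C57BL/6 mice, were purified by fluorescence-activated cell sorting (FACS) and cultured for 5 days with the solvent DMSO, with endothelin-3 (ET-3) or with neurotensin (NT), peptide ligands of G protein-coupled receptors that the labels give at 100 nM each. Each group held 2 libraries here, whereas the series text and the paper speak of triplicates. The labels do not say whether the 2 came from separate mice or cultures, so p-values measure only the spread between these libraries. The study's methods give higher doses of both peptides for MuSC culture than the labels do.

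Ligands of the TGF-beta superfamily bind paired type I and type II serine/threonine kinase receptors at the cell surface. TGF-beta itself, myostatin and activin lead to phosphorylation of SMAD2 and SMAD3, which join SMAD4 and enter the nucleus. In skeletal muscle, myostatin and activin A limit muscle growth, follistatin binds and blocks both, and TGF-beta is known to inhibit myoblast differentiation and fusion.

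Values are the deposited scaled read counts. They summed to between 4214458 and 4600575 per library, from an estimated 3629074 to 5396233 reads on genes. Of the 8 markers listed for MuSCs and myoblasts, Pax7 lay between 857 and 1754 and Myod1 between 1100 and 1539, while Calcr was at most at 3. These 8 markers summed to 8990 and 9963 in DMSO, where 11 markers of muscle differentiation summed to 34328 and 37918. Counting noise alone gives a chi-square near 1 per gene between libraries of a pair. Its mean was 1.45 for the DMSO pair, 0.902 for the ET-3 pair and 0.964 for the NT pair. The treated pairs thus differed by no more than sampling noise. Whether each treated pair came from 1 culture cannot be told from the labels, and the counts of the 10 genes and of other pathway genes below are also given with every treated pair averaged and counted as 1 sample.

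Levels of 8 of the 10 genes differed between DMSO and treated cells with no overlap of libraries, and the direction was the same with both ligands. The share of all genes without overlap was not computed. Among the 72 other pathway genes tested, 55 had no overlap either, so this count does not set the 10 genes apart. Mstn, Fst, Tgfb2, Tgfb3 and Inhba fell, while Acvr2b, Smad7 and Tgfb1 rose. Tgfbr1 and Tgfbr2, the receptors of TGF-beta, did not pass the test. With ET-3, 3 genes rose and 5 fell at an adjusted p of at most 0.05 (limma on log2(value + 1), Benjamini-Hochberg over 13921 genes), where 63.7% of all tested genes passed. With NT, 3 rose and 5 fell, where 62.2% of all tested genes passed. Most tested genes passed at this threshold, and the 8 of 10 genes are to be read against that share. The 10 genes were chosen with earlier results of these data known, so neither their counts nor their median is an independent comparison with all genes. At a change of at least 2-fold as well, 7 genes were called with ET-3 against 21.5% of all tested genes, of which 2 rose (6.62% of all genes) and 5 fell (14.9%). At that size 6 were called with NT against 20.5%, of which 1 rose (7.3%) and 5 fell (13.2%). The median log2 fold change of the 10 genes was -1.23 with ET-3 and -1.41 with NT, beside -0.01 over all tested genes in both comparisons. With the treated pairs averaged, 1 gene rose and 4 fell with ET-3, and 0 rose and 4 fell with NT. Far fewer of all tested genes passed with the pairs averaged as well, so the shares above do not apply to those averaged counts. The 2 comparisons share the DMSO libraries.

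**Figure D1:**
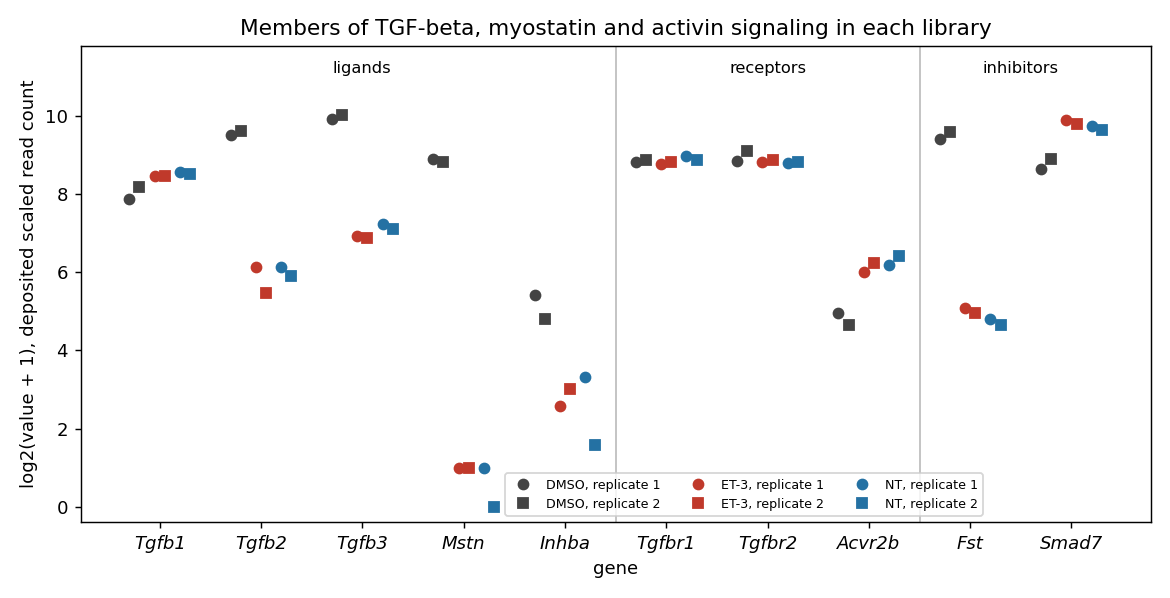
Level of each gene in each of the 6 libraries, as log2(value + 1) of the deposited scaled read count, with circles for replicate 1 and squares for replicate 2 of DMSO, ET-3 and NT. Mstn, Fst, Tgfb2, Tgfb3 and Inhba lie lower in all 4 treated libraries than in DMSO, Tgfb1, Acvr2b and Smad7 lie higher, and the libraries overlap for Tgfbr1 and Tgfbr2.

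Upstream sequences are shown for 3 ligand genes that behaved differently, Mstn with the largest fall, Tgfb2 with a smaller one and Tgfb1, which rose. Each run is the 250 bases before the RefSeq transcript start (GRCm38.p6), written 5′ to 3′ on the gene's strand, with E-boxes (CANNTG, the element that myogenic basic helix-loop-helix factors bind) in capitals.
Mstn (chr1:53061390-53061639, plus strand): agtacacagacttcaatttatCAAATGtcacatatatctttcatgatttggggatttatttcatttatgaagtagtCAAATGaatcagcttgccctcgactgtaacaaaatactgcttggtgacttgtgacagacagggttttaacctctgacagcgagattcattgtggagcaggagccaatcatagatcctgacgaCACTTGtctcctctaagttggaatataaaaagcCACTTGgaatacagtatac
Tgfb2 (chr1:186705990-186706239, minus strand): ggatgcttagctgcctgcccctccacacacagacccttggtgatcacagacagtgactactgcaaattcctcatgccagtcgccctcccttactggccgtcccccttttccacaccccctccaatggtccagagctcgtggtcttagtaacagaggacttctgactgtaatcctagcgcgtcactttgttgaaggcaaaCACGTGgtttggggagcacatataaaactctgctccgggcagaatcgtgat
Tgfb1 (chr7:25686752-25687001, plus strand): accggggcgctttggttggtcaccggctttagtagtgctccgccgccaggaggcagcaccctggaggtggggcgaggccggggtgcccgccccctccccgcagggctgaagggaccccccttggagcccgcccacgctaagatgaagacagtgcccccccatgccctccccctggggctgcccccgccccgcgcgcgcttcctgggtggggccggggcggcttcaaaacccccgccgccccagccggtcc
The Mstn window held 4 E-boxes, 2 of them CAAATG and 2 CACTTG, starting 229, 174, 52 and 19 bases before the transcript start. Of 32851 RefSeq promoter windows of this length, 66.2% held at least 1 E-box and 3.84% held 4 or more. The Tgfb2 window held 1 E-box, CACGTG, 51 bases before the start, and the Tgfb1 window held none. CAGAC, the SMAD-binding element searched on both strands, occurred 2 times in the Mstn window and 2 times in the Tgfb2 window, and 42.2% of all windows held it. An AP-1 element (TGANTCA) occurred once in the Mstn window, where it overlaps the second E-box, and in 6.75% of all windows. The TEAD element CATTCC, found in 12.6% of all windows, was in none of the 3. The G and C content was 38.4% for Mstn, 53.6% for Tgfb2 and 75.2% for Tgfb1, against a median of 52.4%. The windows of Inhba, Acvr2b and Tgfbr2 held no E-box, and Tgfbr1 held 1 in the window of 1 of its 2 starts. Tgfb3, Fst and Smad7 had no entry in the promoter table used. These matches describe letters only.

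Among the ligands, Mstn showed the largest change. It encodes myostatin, the secreted inhibitor of muscle growth, and lies on GRCm38 at chr1:53061640-53068079 on the plus strand with 3 exons (ENSMUSG00000026100). Its value was 479 and 451 in the DMSO libraries, 1 and 1 under ET-3 and 1 and 0 under NT. The gene was thus at the edge of detection in every treated library, and it entered the test only through its DMSO level. The recovered reads numbered 881 in DMSO against 2 with ET-3, a ratio of 409 with a 95% exact interval of 112.9 to 3382, and against 1 with NT, a ratio of 1142 with an interval of 204.5 to 45160. These intervals cover counting error only. The fitted log2 fold change was -7.86 (SE 0.39, limma adjusted p = 9.73e-08) with ET-3 and -8.36 (SE 0.39, adjusted p = 7.13e-08) with NT. Its size depends on the pseudocount. With a pseudocount of 5 it was -6.29 and -6.42, and with 0.5 it was -8.28 and -9.07. The gene ranked 36th and 20th from the most negative of 13921 genes. SE, adjusted p and rank rest on the same treated values of 0 or 1.

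Tgfb3 (ENSMUSG00000021253, chr12:86056745-86079041, minus strand, 7 exons) encodes TGF-beta 3 and had the highest level per kilobase of exon of the 10 genes in DMSO. Its value was 974 and 1051 in DMSO, 120 and 117 under ET-3 and 150 and 138 under NT. All treated libraries lay far below DMSO, and the NT pair lay above the ET-3 pair. On the log2 scale this was a change of -3.08 (SE 0.07, limma adjusted p = 1.71e-09) with ET-3 and -2.81 (SE 0.07, adjusted p = 2.99e-09) with NT. Of its exonic bases, 12.4% also belong to genes annotated on the opposite strand, and the sources differ on whether the libraries keep strand.

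Tgfb2 (ENSMUSG00000039239, chr1:186622792-186705989, minus strand, 10 exons) encodes TGF-beta 2. Its value was 728 and 783 in DMSO, 70 and 43 under ET-3 and 70 and 59 under NT. The fall was as clear as for Tgfb3, with the ET-3 libraries spanning the NT pair. This gave a log2 fold change of -3.76 (SE 0.19, limma adjusted p = 1.08e-07) with ET-3 and -3.53 (SE 0.19, adjusted p = 1.80e-07) with NT.

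Tgfb1 (ENSMUSG00000002603, chr7:25687002-25705077, plus strand, 8 exons) encodes TGF-beta 1, the best studied isoform. Its value was 234 and 289 in DMSO, 356 and 353 under ET-3 and 381 and 366 under NT. Every treated library lay above both DMSO libraries, although the DMSO pair was also the most spread. The fitted change on the log2 scale was 0.45 (SE 0.09, limma adjusted p = 0.00157) with ET-3 and 0.52 (SE 0.09, adjusted p = 0.000612) with NT. Without DMSO replicate 1 the change with ET-3 was 0.29. When the treated pairs were averaged the limma adjusted p was 0.191 for ET-3 and 0.159 for NT.

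Because Tgfb2 and Tgfb3 fell while Tgfb1 rose, the make-up of TGF-beta transcripts differed within each library. Per kilobase of exon, Tgfb3 took 61.7% to 62.6% of the summed level of the 3 genes in DMSO, Tgfb2 26.9% to 27.3% and Tgfb1 10.1% to 11.4%. In the treated libraries Tgfb1 took 57.3% to 62.5%, Tgfb3 30.0% to 33.6% and Tgfb2 6.63% to 10.2%. The level of Tgfb3 per kilobase was 6.20 and 5.42 times that of Tgfb1 in DMSO, 0.502 and 0.494 times under ET-3 and 0.587 and 0.562 times under NT. Tgfb3 was thus above Tgfb1 in both DMSO libraries and below it in all treated libraries. These within-library shares do not depend on the scaling between libraries and were not tested.

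**Figure D2:**
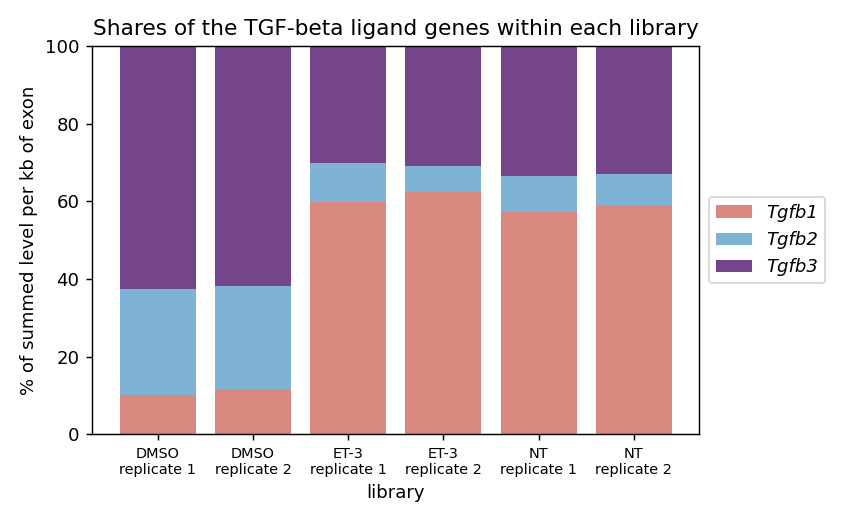
Share of Tgfb1, Tgfb2 and Tgfb3 in their summed level per kilobase of exon, in percent, with 1 stacked bar for each of the 6 libraries. Tgfb3 is the largest segment in both DMSO libraries and Tgfb1 in all 4 treated libraries.

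Inhba (ENSMUSG00000041324, chr13:16011851-16031621, plus strand, 5 exons) encodes the beta A subunit whose dimer is activin A. Its value was 42 and 27 in DMSO, 5 and 7 under ET-3 and 9 and 2 under NT. The gene was low throughout, and every treated library lay below both DMSO libraries. The log2 fold change was -2.32 (SE 0.54, limma adjusted p = 0.00342) with ET-3 and -2.66 (SE 0.54, adjusted p = 0.00158) with NT. The recovered reads, 67 in DMSO, 10 with ET-3 and 14 with NT, gave ratios of 6.22 (95% exact interval 3.18 to 13.6) and 6.20 (3.45 to 12.0). With ET-3 the limma adjusted p rose to 0.110 without DMSO replicate 1, 0.0591 without DMSO replicate 2, 0.0586 without ET-3 replicate 1 and 0.0618 with the treated pairs averaged. With NT it was 0.0782 without DMSO replicate 1 and 0.0621 with the pairs averaged.

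The receptors of TGF-beta differed little between the groups. Tgfbr1 (ENSMUSG00000007613, chr4:47353222-47414931, plus strand, 13 exons) encodes the type I receptor. Its value was 450 and 471 in DMSO, 438 and 452 under ET-3 and 506 and 471 under NT. The libraries overlapped. On the log2 scale this was a change of -0.05 with ET-3 (95% confidence interval -0.18 to 0.08, limma adjusted p = 0.478) and 0.08 with NT (-0.04 to 0.21, adjusted p = 0.225). With libraries scaled to their totals the value for NT was 0.20 (limma adjusted p = 0.00994), where the median of all genes lay at 0.10. Tgfbr2 (ENSMUSG00000032440, chr9:116084293-116175360, minus strand, 8 exons) encodes the ligand-binding type II receptor. Its value was 461 and 548 in DMSO, 454 and 467 under ET-3 and 444 and 455 under NT. The ET-3 libraries overlapped with DMSO, whereas the NT pair lay just below both DMSO libraries. This gave a log2 fold change of -0.13 with ET-3 (-0.30 to 0.04, limma adjusted p = 0.170) and -0.16 with NT (-0.33 to 0.01, adjusted p = 0.0892). The size of the change depended on which DMSO library was kept. Without DMSO replicate 1, the lower of its pair, it was -0.25 with ET-3 and -0.29 with NT. Without DMSO replicate 2 it was -0.002 with ET-3 and -0.04 with NT.

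Acvr2b (ENSMUSG00000061393, chr9:119402118-119434995, plus strand, 9 exons) encodes the activin type IIB receptor, the main type II receptor of myostatin. Its value was 30 and 24 in DMSO, 64 and 75 under ET-3 and 72 and 84 under NT. All treated libraries lay above DMSO, so this receptor rose while the ligand genes Mstn and Inhba fell. The fitted change on the log2 scale was 1.34 (SE 0.19, limma adjusted p = 0.000176) with ET-3 and 1.5 (SE 0.19, adjusted p = 8.18e-05) with NT. With the treated pairs averaged the limma adjusted p was 0.0578 and 0.0542. Acvr2a, which encodes the related type IIA receptor, moved the other way, from 466 and 473 in DMSO to 262 and 229 under ET-3 and 283 and 298 under NT (log2 fold change -0.94 and -0.69, limma adjusted p = 2.36e-06 and 2.17e-05). The share of Acvr2b in the summed level of both genes per kilobase was 6.84% to 8.52% in DMSO and 26.1% to 32.2% in treated cells. Acvr2a remained the higher of the pair per kilobase in every library. Acvr1b, a type I receptor of activin and myostatin, stood between 150 and 176 in all libraries and did not pass the test (log2 fold change -0.04 and -0.06, limma adjusted p = 0.757 and 0.616).

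Of the inhibitors, the secreted and the intracellular one moved in opposite directions. Fst (ENSMUSG00000021765, chr13:114452290-114458951, minus strand, 3 exons) encodes follistatin. Its value was 684 and 770 in DMSO, 33 and 30 under ET-3 and 27 and 24 under NT. The treated libraries formed a narrow range far below DMSO. The log2 fold change was -4.48 (SE 0.14, limma adjusted p = 4.95e-09) with ET-3 and -4.78 (SE 0.14, adjusted p = 4.11e-09) with NT. Fst and Mstn thus fell together. In DMSO the level of Fst per kilobase was 0.842 and 1.01 times that of Mstn, and in treated cells Mstn was too low for this ratio to be read. Smad7 (ENSMUSG00000025880, chr18:75367529-75395935, plus strand, 6 exons) encodes the inhibitory SMAD that blocks TGF-beta and activin receptors and is itself induced by TGF-beta. Its value was 402 and 474 in DMSO, 953 and 892 under ET-3 and 863 and 804 under NT. On the log2 scale this was a change of 1.08 (SE 0.08, limma adjusted p = 1.06e-06) with ET-3 and 0.93 (SE 0.08, adjusted p = 3.19e-06) with NT. With the treated pairs averaged the limma adjusted p was 0.0486 with ET-3 and 0.0593 with NT.

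**Figure D3:**
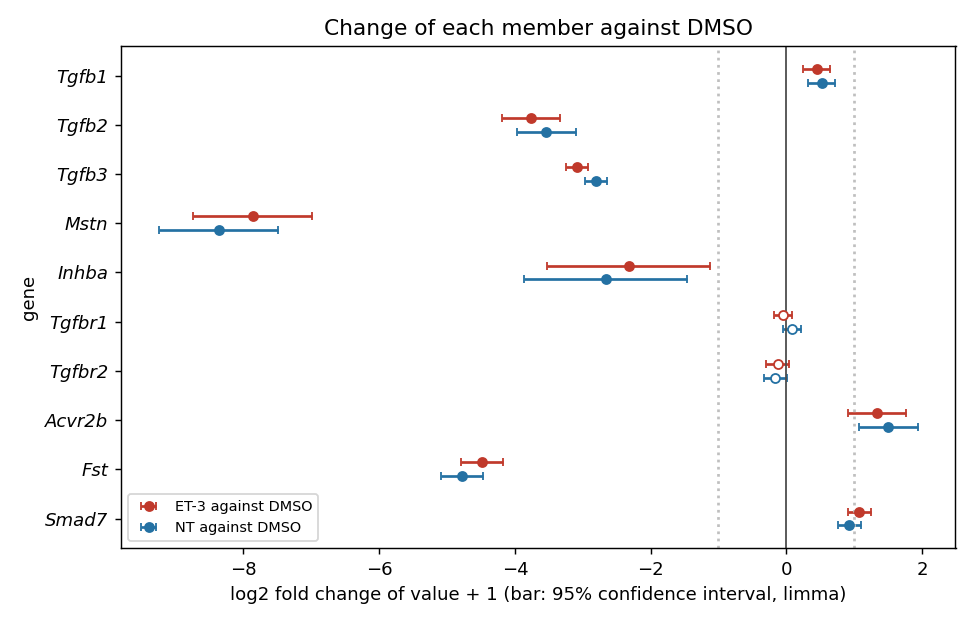
Log2 fold change of value + 1 against DMSO for each gene, with its 95% confidence interval from limma, red for ET-3 and blue for NT, open circles where the adjusted p is above 0.05 and dotted lines at a 2-fold change. Mstn lies farthest from 0 at -7.86 and -8.36, a size that depends on the pseudocount. Both ligands give the same direction for every gene that passed the test.

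The order of the 10 genes by level per kilobase of exon differed between DMSO and treated cells. In DMSO the order was Tgfb3 at a mean of 299, Mstn at 172, Fst at 158, Tgfb2 at 130, Smad7 at 96.9, Tgfbr1 at 70.5, Tgfbr2 at 61.6, Tgfb1 at 51.9, Acvr2b at 6.87 and Inhba at 5.40. The ranges of Mstn and Fst, of Tgfbr2 and Tgfb1, and of Acvr2b and Inhba overlapped. With ET-3 Smad7 led at 204, followed by Tgfb1 at 70.3 and Tgfbr1 at 68.1, and Fst, Inhba and Mstn were last. With NT the order was the same except that Tgfbr1 and Tgfb1 overlapped at 74.8 and 74.1, as did Inhba and Mstn at the low end. Among 12450 genes ranked per kilobase, Mstn stood at percentile 89.1 in DMSO and at 2.15 with ET-3, and Smad7 at 72.5 and 92.5.

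NT and ET-3 were also compared directly. None of the 10 genes passed, with 2.69% of all tested genes passing, 0 of the 10 genes called by voom, and Tgfb3 and Tgfbr1 at an unadjusted p under 0.05. Tgfb3 was higher with NT by 0.28 on the log2 scale (95% confidence interval 0.11 to 0.44, limma adjusted p = 0.0772). Tgfbr1 was higher with NT by 0.13 (0.01 to 0.26, limma adjusted p = 0.233). For Fst the difference of NT from ET-3 was -0.30 (-0.61 to 0.02) and for Smad7 -0.15 (-0.32 to 0.02). For Tgfb1 it was 0.07 (-0.13 to 0.28). The intervals were widest for the low genes, from -1.54 to 0.86 for Inhba and from -1.38 to 0.38 for Mstn.

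Other genes of the pathway were taken from 6 lists of 86 genes, of which 72 were tested. With ET-3, 24 rose and 29 fell, and with NT 24 rose and 30 fell, where the shares of all tested genes were 30.6% higher and 33.2% lower with ET-3 and 29.7% and 32.5% with NT. Over the 72 genes the median log2 fold change was -0.04 and -0.05. The lists were chosen with earlier results of these data known. Averaging the treated pairs left far fewer of all tested genes passing, so these shares do not apply to the averaged counts here and in the lists below. With the treated pairs averaged, 11 rose and 24 fell with ET-3, and 12 rose and 23 fell with NT.

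**Figure D4:**
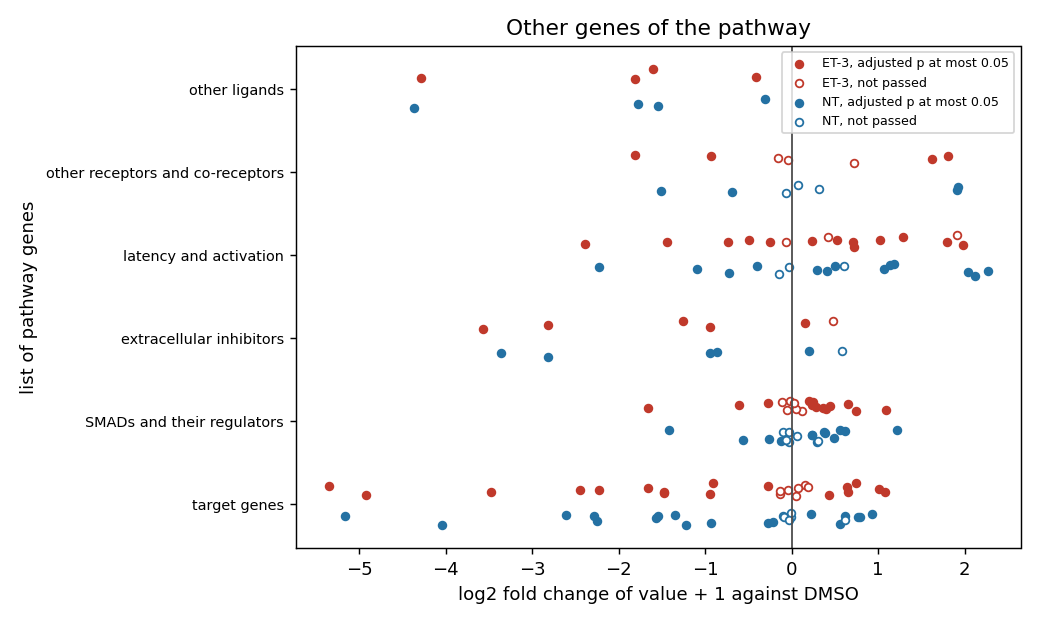
Log2 fold change of value + 1 against DMSO of the tested genes in 6 lists, 1 row for each list and 1 point for each gene, red for ET-3 and blue for NT, filled where the adjusted p is at most 0.05. All 4 other ligands lie below 0, and the remaining lists hold points on both sides.

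All 4 tested genes among the other ligands fell with both peptides, and 3 with the treated pairs averaged. Inha, the alpha subunit that joins a beta subunit to form inhibin, fell from 265 and 272 in DMSO to between 9 and 16 (log2 fold change -4.28 with ET-3 and -4.37 with NT). Inhbb, the beta B subunit of activin B, fell from 414 and 391 to between 107 and 122 (-1.81 and -1.77). Gdf11, the closest relative of myostatin, fell from 895 and 956 to between 299 and 318 (-1.60 and -1.54) and was still well detected. Mstn made up 41.5% to 44.6% of the summed level of Mstn and Gdf11 per kilobase in DMSO and at most 0.50% in treated cells.

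Of 7 tested receptors and co-receptors, 2 rose and 2 fell with each ligand, and 0 rose and 2 fell after averaging the pairs. Tgfbr3, the co-receptor betaglycan, rose from 6 and 14 to between 32 and 41 (1.81 and 1.92), and Acvrl1, a type I receptor best known in endothelial cells, rose from 6 and 3 to between 11 and 21 (1.62 and 1.92). Both were low, and with the treated pairs averaged neither passed (limma adjusted p = 0.162 and 0.153 for Tgfbr3, 0.123 and 0.107 for Acvrl1). At a mean of 4.5 in DMSO, Acvrl1 passed the filter on low values only through the treated libraries. Vasn, a cell surface protein that binds TGF-beta, fell from 420 and 441 to between 108 and 166 (-1.81 and -1.51).

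Of 16 tested genes of latency and activation, 8 rose and 5 fell with ET-3, and 9 rose and 4 fell with NT. Averaging the pairs left 5 rises and 3 falls for ET-3, and 6 rises and 2 falls for NT. Ltbp2, of the latent TGF-beta binding protein family, rose from 77 and 78 to between 273 and 353 (1.99 and 2.12), and Pcsk6, a proprotein convertase, rose from 59 and 49 to between 185 and 229 (1.80 and 2.03). Itgb6, the beta chain of an integrin that activates latent TGF-beta, fell from 547 and 557 to between 101 and 121 (-2.39 and -2.23).

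Of 6 tested secreted inhibitors besides Fst, 1 rose and 4 fell with each ligand, and 0 rose and 4 fell with the treated pairs averaged. Wfikkn2, which encodes a myostatin-binding protein, fell from 30 and 40 to 2 or 3 (-3.57 and -3.36), and Fmod, a matrix proteoglycan, fell from 34 and 33 to between 2 and 7 (-2.82 and -2.82). Both passed the filter on low values only through DMSO, and the size of their fitted change depends on the pseudocount. Bgn, the proteoglycan biglycan, fell from 871 and 918 to between 355 and 508 (-1.26 and -0.95). Fstl3, the follistatin-like inhibitor of myostatin and activin, fell from 92 and 86 to between 42 and 52 (-0.94 and -0.87).

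Of 19 tested SMADs and their regulators, 10 rose and 3 fell with ET-3, and 9 rose and 4 fell with NT. After averaging the pairs, 3 rose and 2 fell with ET-3, namely Smurf2, Pmepa1 and Ldlrad4 upward, and 4 rose and 2 fell with NT, where Trim33 was added. Smad3 fell from 411 and 385 to between 124 and 154 (log2 fold change -1.66 and -1.42, limma adjusted p = 9.66e-08 and 2.96e-07). Smad2, which carries the same signals, stood at 495 and 493 in DMSO and between 452 and 459 in treated cells (-0.12 and -0.12, limma adjusted p = 0.0609 and 0.0489), and its call with NT was lost with the pairs averaged (adjusted p = 0.143). Smad4, the common partner, rose slightly (0.28 and 0.23, limma adjusted p = 0.000374 and 0.0013), which was lost with the pairs averaged (adjusted p = 0.0535 and 0.0683). Among negative regulators, Ldlrad4 rose by 1.09 and 1.22 and Pmepa1 by 0.74 and 0.62 on the log2 scale.

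Of 24 genes known as targets of TGF-beta, 6 rose and 11 fell with ET-3, and 6 rose and 12 fell with NT. After averaging the pairs, 5 rose and 10 fell with ET-3, and 3 rose and 10 fell with NT. This list holds Smad7 itself and shares Skil, Pmepa1 and Tgif1 with the SMAD list. Postn, the matrix protein periostin, fell from 309 and 223 to between 5 and 8 (-5.35 and -5.16), Col1a1, a chain of collagen I, from 148 and 146 to between 2 and 8 (-4.92 and -4.04), and Timp3, a metalloproteinase inhibitor, from 579 and 510 to between 39 and 98 (-3.47 and -2.61). In the direct comparison Timp3 was higher with NT, at a log2 difference of 0.86 (limma adjusted p = 0.0440), and Cdkn1a, a cell cycle inhibitor, was lower, at -0.29 (limma adjusted p = 0.0420). Across all genes, 0 passed this comparison with no filter on low values, with a replicate block, with the treated groups fitted alone, with the treated pairs averaged, with the coverage trend removed or with any 1 library left out, so both calls were lost there.

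Markers of muscle differentiation moved with these genes. All 11 listed markers fell with both ligands, their summed value going from 34328 and 37918 in DMSO to between 1866 and 2388 in treated cells. Ckm, Myh8 and Tnnc2 were at most at 3 in treated cells and passed the filter on low values only through DMSO. Markers of MuSCs and myoblasts summed to 8990 and 9963 in DMSO and to between 7219 and 8692 in treated cells, and of the 7 tested, 2 rose and 3 fell with ET-3, and 2 rose and 5 fell with NT. Among all tested genes, 30.6% rose and 33.2% fell with ET-3, and 29.7% rose and 32.5% fell with NT. Pax7 rose by 0.86 and 0.76 on the log2 scale, Cdh15, a cadherin of MuSCs and myoblasts, fell (-1.80 and -1.82), and Calcr, a marker of quiescent MuSCs, was at most at 3. Less RNA of a gene per cell and fewer cells of a type cannot be told apart in these bulk libraries. The part of the marker change in the levels of the 10 genes was not tested.

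Markers of other cell types were also read in every library. The 7 smooth muscle and pericyte markers summed to 3207 and 3650 in DMSO and to between 752 and 928 in treated cells, and all 5 tested fell. Pdgfrb stood at 227 and 278 in DMSO and between 3 and 13 in treated cells, Rgs5 at 117 and 150 against 2 to 5, and Abcc9 at 851 and 835 against 0 to 4, while Myh11 and Kcnj8 were at most at 4 and 2 in any library. Rgs5 and Abcc9 passed the filter on low values only through DMSO, and most of the treated sum came from the remaining markers Cspg4 and Notch3. The part of the smooth muscle and pericyte markers in the levels of the 10 genes was not tested. The 6 fibroadipogenic markers in the table summed to 1642 and 1805 in DMSO and to between 993 and 1157 in treated cells, mostly through Col3a1. Of the 5 tested, 1 rose and 3 fell with ET-3, and 2 rose and 3 fell with NT. Endothelial markers summed to 34 and 21 in DMSO and to between 47 and 56 in treated cells. Of the 3 tested, 1 rose and 0 fell with ET-3, and 2 rose and 0 fell with NT. The 2 macrophage markers in the table summed to at most 45. The sum of the 4 Schwann markers in the table went from 139 and 155 to between 624 and 687, nearly all through Ngfr. Of the 2 tested, 1 rose and 1 fell with ET-3, and 1 rose and 0 fell with NT. All these counts are to be read against the shares of all tested genes given with the MuSC markers.

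For each gene whose group means ranged over more than 1 on the log2 scale, the 3 protein-coding genes with the nearest pattern over the 6 libraries were taken from 10065 candidates, by the root mean square (RMS) distance of mean-centred log2(value + 1). For Mstn these were Unc45b (0.21), a myosin chaperone, Myl1 (0.34), a myosin light chain, and Gja5 (0.35). For Tgfb2 they were Col11a2 (0.17), the myogenic factor Myf6 (0.18) and Pgm5 (0.19). For Tgfb3 they were Reep1 (0.08), Dusp8 (0.08) and Tspan33 (0.10), and for Fst Nid2 (0.12), Tmem38a (0.16) and Megf6 (0.16). For Inhba the nearest were farther away, Fam167a (0.37), the bone morphogenetic protein antagonist Nog (0.42) and Tcp11l2 (0.45). Among the genes that rose, Acvr2b lay nearest to Etaa1 (0.06), Itpr2 (0.06) and Lipo3 (0.07), and Smad7 to Tk1 (0.05), G6pdx (0.05) and Mpzl1 (0.05). With 6 libraries in 3 groups these distances describe the step between DMSO and treated cells and little else.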

How the data were processed

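Total RNA of 6 libraries was sequenced. The authors trimmed single-end reads, aligned them to mm10 (GRCm38) with STAR, counted reads on exons with featureCounts and left out reads overlapping several genes. The submitters' processing notes name Trimmomatic 0.38, STAR 2.7.7a, featureCounts 1.6.5 and DESeq2 1.30.0, whereas the paper names other versions and another trimming tool. The notes describe a low-input SMART-Seq kit and the paper a stranded kit, and it is unsettled here which was used. The deposited values are a read signal, namely counts multiplied by 1 factor per library (0.781 to 1.19) and rounded, with 0 mitochondrial genes. The factors were estimated from the values, and dividing by them gave the recovered reads.

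Because the values are scaled, the DESeq2 test of the study was not run. log2(value + 1) of all genes whose mean value reached 5 (13921 of 18943) was fitted with limma 3.58.1 in R 4.3.3 (lmFit, eBayes with trend) over all 6 libraries without a block, with Benjamini-Hochberg adjustment over all tested genes. A gene passed at an adjusted p of at most 0.05. The fit was tested on simulated data. Alternatives covered filters, scaling, pseudocounts, voom on recovered reads, a replicate block, 2 groups alone, treated pairs averaged, removal of a coverage trend and each library left out. Positions and exonic lengths came from the GENCODE annotation of GRCm38, promoters from RefSeq. Python 3.11.15, numpy 2.4.6, pandas 2.3.3, scipy 1.17.1 and matplotlib 3.10.9 were used.

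Named genes were all 10 members, the 3 genes of each pathway list with the largest mean change among those passing with both ligands, and Acvr1b, Acvr2a, Smad2, Smad3, Smad4, Gdf11 and Fstl3. Cdkn1a and the markers were named after their values were seen. Some results on single pathway genes are not reported here. The members and lists were chosen with earlier results of these data known. Whether replicate numbers pair the libraries could not be told, and the main fit used no pairing.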

Additional observations from a re-analysis of the deposited data

How the results depend on the processing

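Counting each treated pair as 1 averaged sample left 5 of the 10 genes called with ET-3 and 4 with NT in place of 8 each, and 35 other pathway genes in each comparison in place of 53 and 54. Far fewer of all tested genes passed with that averaging as well. All other alternatives kept the counts of the 10 genes and of other pathway genes within 1.5 times, and NT against ET-3 stayed at 0 of the 10 genes in each. With 1 library left out, 7 or 8 of the 10 genes were called with ET-3 and 8 with NT. The fold change of Tgfbr1 with ET-3 turned from -0.05 to 0.0399 with library totals and to 0.0436 with voom, which scales by totals too, and did not pass in any of them. Of the other values for single genes, 301 kept direction and side of the threshold, 11 lost their call and 4 gained one. Scaling to totals moved the median of all genes to 0.08 with ET-3 and 0.10 with NT. Inhba has no value at a mean of at least 20, and the single-gene alternatives of NT against ET-3 were not run because no member passed.

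The replicate block gave 8, 8 and 0 genes for ET-3, NT and their direct comparison, and 53 and 52 other pathway genes. Deviations of libraries with the same number correlated at -0.01, -0.07 and -0.02. Because the treated pairs differed by no more than sampling noise, these correlations cannot tell whether the numbers pair the libraries. The depth limits Mstn in treated cells and Inhba, whose intervals are given with their reads. The causes of these shifts were not tested, except that averaging leaves fewer samples.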
